A study of Homo sapiens with 12 samples.

Results

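The zinc finger genes of human chromosome 19 were followed one by one across 12 RNA-seq libraries of a single hepatoma cell line. They were defined as all protein-coding genes of chromosome 19 in the GENCODE annotation whose symbol is ZNF followed by a number, which gave 239 of the 57820 genes counted. The cells were PLC/PRF/5, an epithelial line derived from a human liver tumour. The study knocked out and then restored HKDC1, a member of the hexokinase family that phosphorylate glucose, to ask what the gene does in liver cancer cells. There were 8 libraries from knockout lines: KO2 and KO2_RES (line 2, 2 libraries each) and KO1 and KO1_RES (line 1, 2 libraries each), where RES marks HKDC1 put back. The other 4 libraries were wild-type controls of the same cell line, numbered 1 to 4. The labels do not say whether each line is a single clone, how the knockout or the rescue was made, or whether the libraries of a group came from separate cultures. The p-values below therefore measure the spread between these libraries only, which may be technical.

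Most ZNF genes of chromosome 19 encode a KRAB domain followed by a row of C2H2 zinc fingers. The fingers bind DNA, often within retrotransposons, and the KRAB domain recruits the corepressor TRIM28 with the histone methyltransferase SETDB1, so that the bound site is packed into silent chromatin. The genes arose by tandem duplication and lie in long head-to-tail clusters, which are themselves covered by repressive histone marks in many cell types. Several of them are silenced by promoter methylation in tumours. Whether such genes change one at a time or as whole clusters can be read from their order along the chromosome.

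Depth was 36075411 to 71853616 counts assigned to genes per library, so that the 3 counts taken as the limit of detection stand for 0.0407 to 0.0848 CPM (counts scaled to a common library size with TMM factors). HKDC1 was at 508.3 and 621.6 CPM in KO2_RES and 91.4 and 49.2 CPM in KO2. In the line labelled KO1 it was at 1240 and 1544 CPM in KO1_RES and at 153.4 and 146.1 CPM in KO1, which overlaps the 123.6 to 183.5 CPM of the controls. No difference below is therefore read as an effect of HKDC1 loss, and lines 1 and 2 are compared as lines. The title and the genotype field disagree on knockout or rescue for 4 of the 12 libraries, but not on the line. The hepatoma label was checked against 8 liver markers, whose summed level was 1600 to 1910 CPM in line 2, 2280 to 4090 CPM in line 1 and 2370 to 13200 CPM in the controls. The 4 blood markers summed to at most 0.179 CPM in any library. Endothelial markers summed to 0.375 to 0.998 CPM in line 2, 0.311 to 0.583 CPM in line 1 and 0.39 to 2.0 CPM in the controls. The 3 epithelial markers summed to 2310 to 3670 CPM in line 2, 3130 to 4410 CPM in line 1 and 3310 to 4750 CPM in the controls. The 5 fibroblast markers summed to 7.77 to 10.4 CPM in line 2, 1.24 to 2.58 CPM in line 1 and 5.24 to 8.51 CPM in the controls, and their part in the results was not tested. Controls 3 and 4 stood apart from controls 1 and 2. The level of ALB, the albumin gene, was 23.1 and 28.2 CPM in the first of these pairs, against 906.9 and 822.5 CPM in controls 1 and 2. Of the 8 liver markers only AFP went the other way. It was at 37.0 and 40.7 CPM in controls 3 and 4, against 16.9 and 14.8 CPM in controls 1 and 2. The epithelial markers KRT8 and KRT18 were also higher in controls 3 and 4, and CDH1 overlapped between the pairs. Each result against control is therefore read with both pairs of controls in view.

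The promoters of 5 genes on which the switches and the cluster results turn are shown to let their CpG content be seen, since CpG sites are where DNA methylation occurs. They are the 250 bases before each gene's start in RefSeq on GRCh38.p14, read 5′ to 3′ on the strand of the gene, with every CpG in capitals. ZNF154 and ZNF69 were off in line 2 and on in line 1, ZNF486 was on in controls 3 and 4 and off in controls 1 and 2, and ZNF347 and ZNF677 changed in opposite directions in the 2 lines. They lie at chr19:57709205-57709454 on the minus strand (ZNF154), chr19:11887532-11887781 on the plus strand (ZNF69), chr19:20166964-20167213 on the plus strand (ZNF486), chr19:53159054-53159303 on the minus strand (ZNF347) and chr19:53254824-53255073 on the minus strand (ZNF677).
ZNF154: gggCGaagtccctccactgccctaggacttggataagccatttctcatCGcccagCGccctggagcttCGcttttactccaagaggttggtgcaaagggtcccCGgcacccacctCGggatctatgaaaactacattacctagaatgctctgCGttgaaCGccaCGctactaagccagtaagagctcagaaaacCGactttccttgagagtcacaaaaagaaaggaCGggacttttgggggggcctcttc
ZNF69: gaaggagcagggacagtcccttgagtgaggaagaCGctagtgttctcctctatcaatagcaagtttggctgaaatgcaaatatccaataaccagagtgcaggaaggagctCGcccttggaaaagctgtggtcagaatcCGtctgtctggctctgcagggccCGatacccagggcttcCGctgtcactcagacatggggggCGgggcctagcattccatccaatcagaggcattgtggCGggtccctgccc
ZNF486: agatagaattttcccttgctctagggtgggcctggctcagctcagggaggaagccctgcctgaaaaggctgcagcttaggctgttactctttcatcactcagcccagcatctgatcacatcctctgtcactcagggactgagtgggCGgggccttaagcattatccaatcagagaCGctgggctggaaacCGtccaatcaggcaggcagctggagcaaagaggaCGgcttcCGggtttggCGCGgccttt
ZNF347: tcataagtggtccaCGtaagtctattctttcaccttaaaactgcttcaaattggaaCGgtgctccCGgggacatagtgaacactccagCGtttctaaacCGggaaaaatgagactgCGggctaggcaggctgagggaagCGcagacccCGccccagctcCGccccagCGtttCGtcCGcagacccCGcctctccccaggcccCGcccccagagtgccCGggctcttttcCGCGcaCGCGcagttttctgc
ZNF677: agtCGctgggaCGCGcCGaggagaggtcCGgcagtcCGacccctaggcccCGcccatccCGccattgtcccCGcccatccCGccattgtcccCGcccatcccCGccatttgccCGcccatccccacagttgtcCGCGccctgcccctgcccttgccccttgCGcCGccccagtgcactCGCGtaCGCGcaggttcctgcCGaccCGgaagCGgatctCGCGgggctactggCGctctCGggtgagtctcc
The ZNF154 promoter holds 11 CpG, the median of all 27305 promoters in the table. The ZNF69 and ZNF486 promoters hold 7 each, and 41.6% of all promoters hold fewer. ZNF347 has 19 CpG, more than 65.7% of all promoters, and ZNF677 has 28, more than 84.5%. Methylation was not measured here, so the counts describe the letters only.

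Almost all of the 239 genes were transcribed in these cells at a low level. In all 12 libraries, 196 were at 0.5 CPM or more, 6 were under 0.1 CPM (ZNF556, ZNF177, ZNF763, ZNF536, ZNF541 and ZNF132), and 37 lay between. A library had 211 to 216 of them at 0.5 CPM or more in line 2, 215 to 219 in line 1, 213 and 212 in controls 3 and 4, and 206 and 204 in controls 1 and 2. Their counts made up 0.27% to 0.384% of each library. A filter on low counts kept 232 for testing. The 7 left out were the 6 named above and ZNF439.

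A gene was called off in a set of libraries when it was under 0.1 CPM in each of them, and on when it was at 0.5 CPM or more in each. No member was off in one set and on in the other between line 2 and control, or between line 1 and control. Of all 19263 protein-coding genes, 0.026% were on in line 2 and off in control and 0.0363% the reverse, and for line 1 the shares were 0.0156% and 0.125%. This rule asks all 4 controls to agree, although controls 3 and 4 stood apart from controls 1 and 2. ZNF154, ZNF69, ZNF93 and ZNF844 were on in line 1 and off in controls 1 and 2, but not off in controls 3 and 4. ZNF154 was off in line 2 and on in controls 3 and 4. Switches against each pair of controls were not counted. Between the lines, 2 of 239 members (0.837%) were off in line 2 and on in line 1, ZNF154 and ZNF69, and none was on in line 2 and off in line 1. Among the protein-coding genes, 23 (0.119%) were off in line 2 and on in line 1, and 30 (0.156%) were the other way round. Between the pairs of controls, 2 members (0.837%) were on in controls 3 and 4 and off in controls 1 and 2, ZNF154 and ZNF486, against 60 protein-coding genes (0.311%), and 0 were the reverse, against 15 (0.0779%). In bulk RNA, fewer cells that express a gene and less RNA in each cell cannot be told apart.

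ZNF154 (ENSG00000179909.11), which encodes a KRAB zinc finger protein and is known for promoter methylation in many tumours, was at 0.0563 and 0.0880 CPM in KO2_RES and 0.0736 and 0 CPM in KO2. It was at 0.861 and 1.72 CPM in KO1_RES and 2.05 and 2.15 CPM in KO1. Controls 3 and 4 had 0.542 and 0.638 CPM, against 0.0537 and 0.0146 CPM in controls 1 and 2. So line 2 overlapped controls 1 and 2, and all 4 of line 1 lay above every control. Between the lines the log2 fold change, always line 2 over line 1, was -5.00 ± 1.0 (SE, edgeR quasi-likelihood test, Benjamini-Hochberg adjusted p = 0.0042). When reads of both strands were counted the change was only -1.23, still called with an adjusted p of 0.0038, and with the KO_RES libraries alone the call was lost (adjusted p = 0.068). The tested neighbours of ZNF154 did not follow it: between the lines ZNF551 changed by 0.42 ± 0.20 and ZNF671 by -0.04 ± 0.24 on the log2 scale, and neither was called.

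ZNF69 (ENSG00000198429.5), a zinc finger gene of the short arm, was at 0.0375 and 0.0440 CPM in KO2_RES and 0 and 0.0679 CPM in KO2. In line 1 it was at 0.939 and 1.19 CPM in KO1_RES and 0.592 and 0.956 CPM in KO1. Controls 3 and 4 had 0.169 and 0.266 CPM, against 0.0358 and 0.0292 CPM in controls 1 and 2. Line 1 did not overlap any other set, and line 2 overlapped controls 1 and 2. The log2 fold change was -4.45 ± 0.73 in line 2 over line 1 (edgeR adjusted p = 0.0014) and 2.85 ± 0.64 in line 1 over control (edgeR adjusted p = 0.0078). On one side of it ZNF440 changed the same way by a smaller amount, with -0.65 ± 0.13 between the lines (edgeR adjusted p = 0.0041). On the other side ZNF700 went the opposite way, with 0.59 ± 0.14 (edgeR adjusted p = 0.012).

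ZNF486 (ENSG00000256229.3), in the large cluster near the centromere, was at 1.30 and 1.68 CPM in controls 3 and 4, against 0.0537 and 0.0438 CPM in controls 1 and 2. Line 2 had 0.0938 and 0.132 CPM in KO2_RES and 0.0368 and 0.122 CPM in KO2. Line 1 had 0.294 and 0.990 CPM in KO1_RES and 0.192 and 0.350 CPM in KO1. All 8 libraries of the knockout lines thus lay between the pairs of controls or below both, and ZNF486 was called in no comparison of lines.

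**Figure D1:**
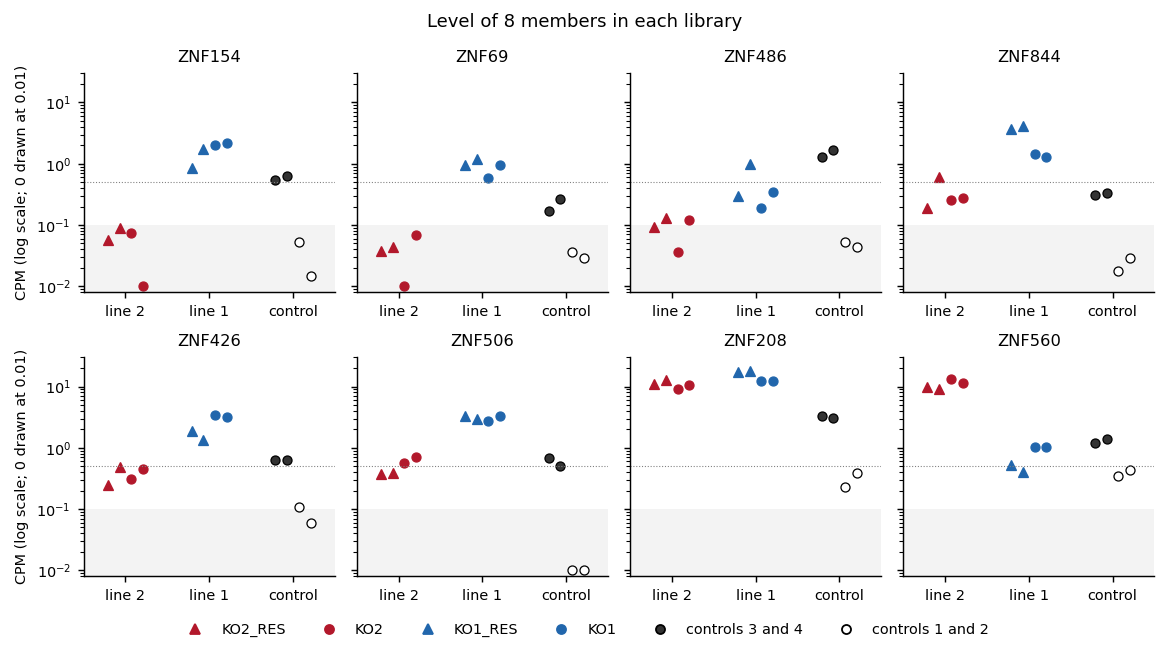
Level of 8 zinc finger genes in each of the 12 libraries, as CPM on a log axis with 0 drawn at 0.01. Each panel shows line 2, line 1 and control from left to right; triangles are KO_RES and circles KO libraries, filled control points are controls 3 and 4 and open ones controls 1 and 2, the shaded band lies under 0.1 CPM and the dotted line marks 0.5 CPM. ZNF154 and ZNF69 lie in the shaded band in all 4 libraries of line 2 and above the dotted line in all 4 of line 1, while ZNF208 lies above the dotted line in both lines and in controls 3 and 4, and below it in controls 1 and 2.

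The difference between the pairs of controls ran mostly one way among these genes. The labels give the 4 controls as 1 group, so the pairs are described and not tested, by a rule chosen after the values were seen: the lowest library of one pair at least 2-fold above the highest of the other, with levels under 0.1 CPM set to 0.1. Of the 217 members at 0.5 CPM or more in any control, 13 (5.99%) were higher in controls 3 and 4 by this rule and 1 (0.461%) was lower, ZNF233. Of 13056 protein-coding genes, 540 (4.14%) were higher and 503 (3.85%) lower. At 4-fold, 7 members (3.23%) were higher and 0 lower, against 224 (1.72%) and 179 (1.37%) of protein-coding genes. The cluster near the centromere held 6 of the 13: ZNF506, ZNF93, ZNF486, ZNF85, ZNF208 and ZNF676. ZNF676 was at 7.95 and 7.71 CPM in controls 3 and 4, against 1.84 and 1.88 CPM in controls 1 and 2. For ZNF506 controls 3 and 4 had 0.678 and 0.497 CPM, against 0 counts in controls 1 and 2. The remaining 7 were ZNF560 and ZNF426 next to each other, ZNF614 and ZNF816 in the ZNF577 to ZNF677 cluster, ZNF154 and ZNF418 in the ZNF264 to ZNF544 cluster, and ZNF114. Within each of these clusters most members did not meet the rule: ZNF506 stands between ZNF14, at 5.76 and 4.50 CPM in controls 3 and 4 against 6.12 and 6.05 CPM in controls 1 and 2, and ZNF253, with 3.30 and 2.04 CPM in controls 3 and 4 and 2.83 and 2.57 CPM in controls 1 and 2.

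Line 1 against control gave changes in both directions. Of 232 tested members, 43 were higher and 22 lower, 28.0% in all, where 26.9% of all 20559 genes tested were called (11.3% higher and 15.7% lower). The share of members called is near that background, and the split leans to higher in the members and to lower in all genes. The median log2 fold change was 0.04 over the members and -0.02 over all genes tested. Set against controls 3 and 4 alone, 37 were higher and 18 lower, with 22.5% of all genes called. Set against controls 1 and 2 alone, 46 were higher and 30 lower, with 30.7% of all genes called. The largest called rise was that of ZNF723 (ENSG00000268696.1), a gene of the cluster near the centromere, which was at 8.28 and 6.76 CPM in KO1_RES and 2.13 and 2.29 CPM in KO1, against 0.508 and 0.284 CPM in controls 3 and 4 and 0.161 and 0.204 CPM in controls 1 and 2. No control reached any line 1 library, and the log2 fold change was 3.81 ± 0.33 (edgeR adjusted p = 2.7e-05).

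Other steep rises in line 1 were ZNF844 (3.74 ± 0.69, edgeR adjusted p = 0.0028), ZNF208 (3.08 ± 0.68, adjusted p = 0.0076), ZNF93 (2.78 ± 0.62, adjusted p = 0.0076), ZNF426 (2.67 ± 0.62, adjusted p = 0.0096) and ZNF544 (2.65 ± 0.21, adjusted p = 1.6e-05). ZNF93 is known to repress L1 retrotransposons. It was at 3.23 and 2.54 CPM in KO1_RES and 1.04 and 1.59 CPM in KO1, against 0.491 and 0.532 CPM in controls 3 and 4 and 0.0537 and 0.0584 CPM in controls 1 and 2. Line 1 lay above all controls for ZNF93, and the call was just lost with the KO libraries alone (adjusted p = 0.051). ZNF544, whose target is not established, was at 23.5 and 19.5 CPM in KO1_RES and 27.8 and 24.0 CPM in KO1, against 3.37 to 4.76 CPM in the 4 controls. Its log2 fold change was 2.11 ± 0.20 in line 2 over the same controls (edgeR adjusted p = 0.00011), with 18.4 and 10.6 CPM in KO2_RES and 21.3 and 15.4 CPM in KO2. The ZNF544 values of the 2 pairs of controls lay together, unlike those of ZNF93 and ZNF208.

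The falls in line 1 included genes that stand alone. ZNF175 (ENSG00000105497.3), known as a repressor of the HIV-1 promoter, was at 1.37 and 1.5 CPM in KO1_RES and 1.38 and 1.24 CPM in KO1, against 5.34 to 5.73 CPM in the controls. The drop of ZNF175 was even across the libraries (log2 fold change -2.0 ± 0.14, edgeR adjusted p = 6.1e-06), and line 2 had 6.70 to 8.29 CPM. ZNF558 (ENSG00000167785.4), a repressor of the mitophagy gene SPATA18, was at 12.4 and 13.1 CPM in KO1_RES and 10.2 and 9.75 CPM in KO1, against 31.7 to 36.6 CPM in the controls. For ZNF558 the log2 fold change was -1.59 ± 0.11 (edgeR adjusted p = 6.1e-06), and line 2, at 37.5 to 51.5 CPM, lay above every control without being called (0.30 ± 0.11, adjusted p = 0.077). Both genes lie outside the clusters. ZNF331, an imprinted gene, was at 21.7 and 22.0 CPM in KO1_RES and 23.0 and 22.4 CPM in KO1, against 43.7 and 33.0 CPM in controls 3 and 4 and 71.0 and 66.3 CPM in controls 1 and 2, a log2 fold change of -1.26 ± 0.22 (edgeR adjusted p = 0.0021).

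Line 2 against the same controls was one-sided. Of 232 members, 44 were higher and 5 lower, 21.1% in all, where 17.3% of all genes tested were called (7.7% higher and 9.61% lower). The median log2 fold change was 0.23 over the members, of which 179 had a positive value, and 0.00461 over all genes tested. The 211 tested ZNF genes of other chromosomes gave 31 higher and 12 lower, with a median of 0.09, and the 859 other tested genes of chromosome 19 gave 40 higher and 87 lower, with a median of -0.07. The count rests on 1 library in part: without KO2 replicate 1 it was 22 higher and 2 lower, with 9.81% of all genes called. Against controls 3 and 4 alone it was 39 higher and 6 lower (19.4% of members, with 14.8% of all genes called), and against controls 1 and 2 alone 45 and 6 (22.0%, with 24.4% of all genes called). The KO libraries alone gave 28 higher and 1 lower, with 10% of all genes called, and the KO_RES libraries alone 22 and 1, with 9.62%. In each of these settings the share of members called was near that of all genes, and most called members were higher.

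ZNF560 (ENSG00000198028.3) rose most. It was at 9.94 and 9.20 CPM in KO2_RES and 13.2 and 11.2 CPM in KO2, against 1.19 and 1.37 CPM in controls 3 and 4 and 0.340 and 0.438 CPM in controls 1 and 2. Line 2 did not overlap the controls (log2 fold change 3.70 ± 0.41, edgeR adjusted p = 0.00027). Line 1 had 0.528 and 0.396 CPM in KO1_RES and 1.04 and 1.03 CPM in KO1, within the controls. Its neighbour ZNF426 (ENSG00000130818.6) did the reverse: 0.244 and 0.484 CPM in KO2_RES and 0.313 and 0.448 CPM in KO2, 1.88 and 1.36 CPM in KO1_RES and 3.38 and 3.13 CPM in KO1, 0.644 and 0.638 CPM in controls 3 and 4, and 0.107 and 0.0584 CPM in controls 1 and 2. Line 1 lay above all other sets for ZNF426, and line 2 overlapped the controls. Between the lines the pair differed by 3.96 ± 0.42 for ZNF560 (edgeR adjusted p = 8.9e-05) and by -2.61 ± 0.62 for ZNF426 (edgeR adjusted p = 0.010, lost at 0.13 with the KO_RES libraries alone). The next genes outward, ZNF266 and ZNF121, were not called in any of these comparisons (0.05 ± 0.11 and 0.21 ± 0.14 between the lines). Adjacent genes of 1 cluster could thus go opposite ways.

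ZNF208 and ZNF676, in the cluster near the centromere, were higher in line 2. ZNF208 was at 11.1 and 12.5 CPM in KO2_RES and 9.23 and 10.4 CPM in KO2, and at 17.4 and 18.2 CPM in KO1_RES and 12.5 and 12.2 CPM in KO1, against 3.32 and 3.09 CPM in controls 3 and 4 and 0.233 and 0.394 CPM in controls 1 and 2. Both lines lay above all controls for ZNF208, and controls 3 and 4 lay above controls 1 and 2. The log2 fold change of ZNF208 in line 2 over control was 2.62 ± 0.67 (edgeR adjusted p = 0.023), and the call was lost without KO2 replicate 1 (0.053) or 2 (0.057). With controls 3 and 4 alone it was 1.75 (adjusted p = 6.8e-05). ZNF676 was at 33.5 and 32.6 CPM in KO2_RES and 24.8 and 24.4 CPM in KO2, above every control (log2 fold change 2.56 ± 0.46, edgeR adjusted p = 0.0040). Among the 5 falls in line 2, that of ZNF813 was the steepest, at 1.07 and 1.44 CPM in KO2_RES and 0.901 and 1.21 CPM in KO2, against 4.19 to 8.16 CPM in the controls (-2.44 ± 0.27, edgeR adjusted p = 0.00024). The others were ZNF555, ZNF627, ZNF320 and ZNF331.

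The line 1 and line 2 comparisons share their controls, so that a count of genes called in both carries the error of the controls with it. As values side by side, 18 members were called higher in both lines, 24 higher in line 2 alone, 24 higher in line 1 alone, 19 lower in line 1 alone, 3 lower in line 2 alone and 1 lower in both, and 140 were called in neither. The other 3 were called in opposite directions: ZNF320 was lower in line 2 and higher in line 1, and ZNF347 and ZNF677 were higher in line 2 and lower in line 1.

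The direct comparison of line 2 with line 1 sets no control level against the lines, though the controls enter the estimate of the spread. It called 72 of 232 members, 48 higher and 24 lower in line 2, or 31.0%, where 26.9% of all genes tested were called (14.6% higher and 12.3% lower). The 211 tested ZNF genes of other chromosomes gave a like share, 33.2%, with 43 higher and 27 lower and a median of 0.11. For the 859 other tested genes of chromosome 19 it was 21.7%, with 115 higher and 71 lower and a median of 0.07. The median log2 fold change was 0.20 over the members and 0.04 over all genes tested. In a fit without the controls, added after the data were seen, the count of members called was 75, 46 higher and 29 lower, where 28.6% of all genes were called. With the replicate number as a block the count was 112, 80 higher and 32 lower, where 43.4% of all genes were called. With the KO libraries alone it was 34, with 12% of all genes called, and with the KO_RES libraries alone 37, with 14%. ZNF320 (ENSG00000182986.8) was at 1.41 and 2.05 CPM in KO2_RES and 1.07 and 1.85 CPM in KO2, 14.7 and 16.1 CPM in KO1_RES and 19 and 15.7 CPM in KO1, and 2.34 to 4.0 CPM in the controls. The lines did not overlap, with the controls between them (log2 fold change -3.36 ± 0.26, edgeR adjusted p = 1.2e-05). ZNF418 was at 0.300 and 0.235 CPM in KO2_RES and 0.368 and 0.231 CPM in KO2, against 2.45 and 2.09 CPM in KO1_RES and 2.08 and 2.12 CPM in KO1, with 0.322 to 1.02 CPM in the controls. The lines did not overlap for ZNF418, and line 2 overlapped controls 1 and 2 (-2.95 ± 0.41 between the lines, edgeR adjusted p = 0.00047).

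**Figure D2:**
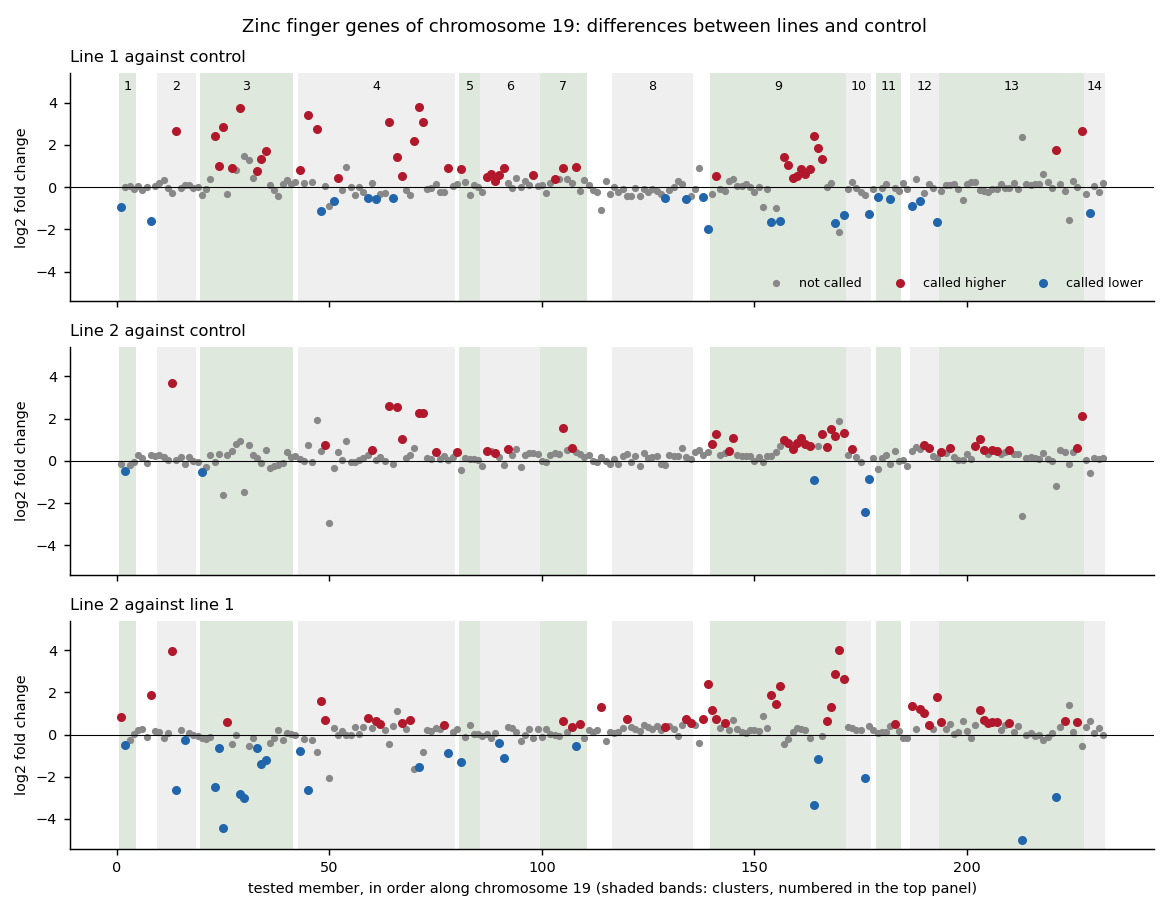
Log2 fold change of each tested member in the order of the genes along chromosome 19, for line 1 over control, line 2 over control and line 2 over line 1 in 3 panels. Shaded bands mark the 14 clusters and coloured points the genes called at an adjusted p under 0.05. In the line 2 over control panel 179 of the 232 points lie above 0.

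To ask whether genes changed singly or together, members with at most 2 other protein-coding genes between them were joined into clusters of 3 or more. This gave 14 clusters with 216 members, 5 to 37 in each, and left 23 members outside. The order came from an annotation of another build than that of the counts and was used for neighbourhood only. Among 197 pairs of tested neighbours in a cluster, both genes were called the same way in 9.64% for line 2 over control, 10.2% for line 1 over control and 11.7% for line 2 over line 1. Pairs of the same cluster that were not neighbours gave 8.23%, 7.22% and 7.0%, and all other pairs, members outside the clusters included, 3.1%, 3.92% and 5.03%. For line 2 over control the shares within clusters rest largely on 1 cluster, ZNF577 to ZNF677, which held 16 of the 44 members called higher. Neighbours called in opposite directions were rarer than neighbours called the same way, with 1, 5 and 6 of the 197 pairs (0.508%, 2.54% and 3.05%). Opposite calls were few in the other kinds of pairs as well. They made up 0.777%, 4.3% and 3.66% of the pairs in 1 cluster that were not neighbours, and 0.827%, 3.47% and 4.37% of all other pairs. These shares describe pairs that have genes in common, and 9 of the neighbouring pairs overlap each other on the same strand, among them ZNF808 with ZNF701 and ZNF468 with ZNF320. Of those 9, 4, 3 and 2 were called the same way.

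Runs of consecutive members called the same way held 30 of the 49 called members for line 2 over control, 26 of 65 for line 1 over control and 36 of 72 for line 2 over line 1. The longest had 7, 10 and 5 members. The counts in runs have no count for a random order of the genes beside them. Steep changes were found both with and without a neighbour called the same way. Of the 12 members at least 4-fold higher in line 1 than in control, 6 had no neighbour called the same way: ZNF426, ZNF844, ZNF506, ZNF93, ZNF208 and ZNF544. Of the 10 at least 4-fold lower in line 2 than in line 1, 5 had none: ZNF426, ZNF506, ZNF813, ZNF154 and ZNF418. For ZNF506 between the lines (-2.65 ± 0.87, edgeR adjusted p = 0.045) the call was lost when any 1 of the 8 libraries of the lines was left out. Of the 6 at least 4-fold higher in line 2 than in line 1, 4 had such a neighbour and ZNF560 had none, while ZNF175 lies outside the clusters and has no neighbour to compare. A neighbour that was not called may still have changed. ZNF20, beside ZNF844, was not called in line 1 over control. Between the lines both were called lower in line 2, ZNF20 by -2.99 (edgeR adjusted p = 0.0044).

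The cluster from ZNF577 to ZNF677, with 32 members all tested, held the longest runs. In line 2 over control 16 of its members were higher and 1 lower, 30 of 32 had a positive value, and the median log2 fold change was 0.68. Leaving out 1 library at a time left 11 to 17 higher, with the fewest when control replicate 2 was left out. In line 1 over the same controls 11 were higher and 4 lower, with a median of 0.06. Within it, the 7 consecutive genes from ZNF808 to ZNF468 were all higher in line 2 and, with the next 3, ZNF320, ZNF888 and ZNF816, all higher in line 1. ZNF808, needed for development of the human pancreas, was at 13.6 and 15.6 CPM in KO2_RES and 13.4 and 15.7 CPM in KO2, and at 17.9 and 18.3 CPM in KO1_RES and 20.2 and 24.0 CPM in KO1, against 8.95 and 9.88 CPM in controls 3 and 4 and 5.10 and 5.39 CPM in controls 1 and 2. Every line library lay above every control for ZNF808 (line 2 over control 0.99 ± 0.21, edgeR adjusted p = 0.010, and line 1 over control 1.45 ± 0.22, edgeR adjusted p = 0.00081).

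ZNF600, in the middle of the run, was at 16 and 14.7 CPM in KO2_RES and 19.2 and 16.7 CPM in KO2, and at 14.9 and 11.3 CPM in KO1_RES and 15.4 and 14.5 CPM in KO1, against 7.52 to 8.47 CPM in the controls. The pairs of controls lay close together for ZNF600, and the change was 1.09 ± 0.12 in line 2 over control (edgeR adjusted p = 0.00025) and 0.85 ± 0.12 in line 1 over control (edgeR adjusted p = 0.00062). The other members of the run changed by 0.58 to 0.85 on the log2 scale in line 2 and by 0.46 to 1.06 in line 1 (ZNF701, ZNF83, ZNF611, ZNF28 and ZNF468). The authors counted reads that map to 1 place only, and ZNF genes of 1 cluster resemble each other, so the level of each is that of its unique stretches.

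At the far end of the same cluster the lines parted. ZNF347 (ENSG00000197937.8) was at 7.63 and 6.53 CPM in KO2_RES and 7.87 and 8.32 CPM in KO2, 1.02 and 0.650 CPM in KO1_RES and 1.31 and 1.21 CPM in KO1, and 3.08 to 3.66 CPM in the controls. The 3 sets did not overlap, with a log2 fold change of 1.18 ± 0.17 in line 2 over control, -1.70 ± 0.17 in line 1 over control and 2.87 ± 0.18 in line 2 over line 1 (edgeR adjusted p = 0.0011, 8.7e-05 and 3.1e-06). ZNF677 (ENSG00000197928.6), described as a methylated gene in several tumours, was at 12.1 and 13.9 CPM in KO2_RES and 14.7 and 13.8 CPM in KO2, 1.66 and 1.10 CPM in KO1_RES and 3.65 and 3.17 CPM in KO1, and 3.71 to 6.73 CPM in the controls. ZNF677 also gave 3 sets that did not overlap, with 1.34 ± 0.21, -1.30 ± 0.22 and 2.64 ± 0.23 in the same order (edgeR adjusted p = 0.0021, 0.0016 and 2.1e-05), and the fall in line 1 was lost with the KO libraries alone (0.12). ZNF665 between them was scarce, at 0.147 to 0.312 CPM in line 2 and 0 to 0.128 CPM in line 1 (3.99 ± 0.89, edgeR adjusted p = 0.0093). Between the lines the 5 consecutive genes ZNF160, ZNF415, ZNF347, ZNF665 and ZNF677 were all higher in line 2, though ZNF160 and ZNF415 lost their calls when single libraries were left out.

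**Figure D3:**
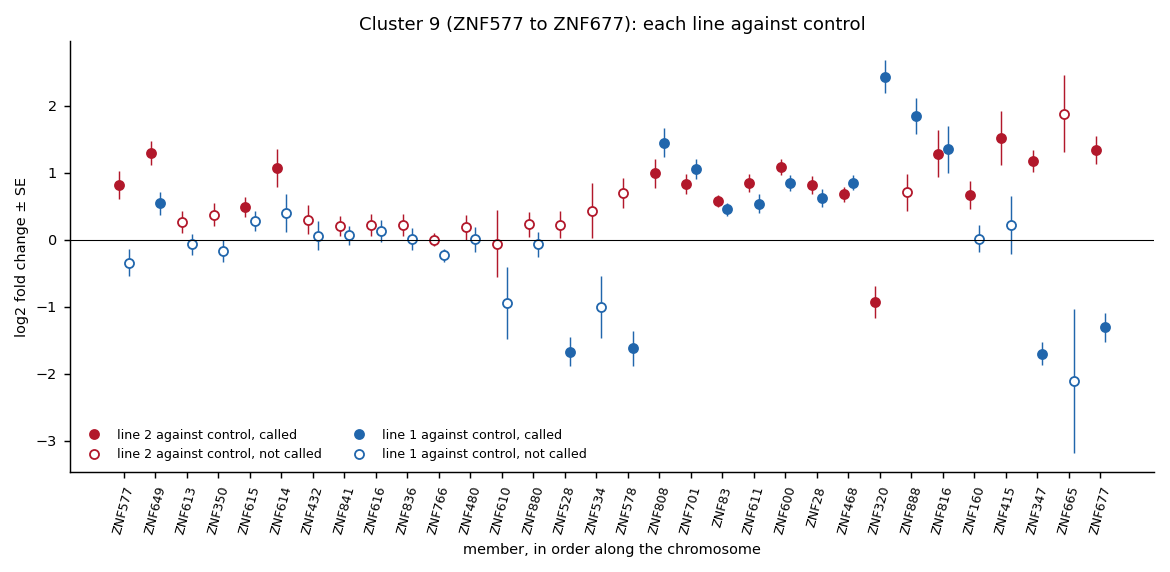
Log2 fold change over control of the 32 members of the ZNF577 to ZNF677 cluster in their order along the chromosome, for line 2 and line 1; bars are SE and filled points are genes called at an adjusted p under 0.05. The run from ZNF808 to ZNF816 lies above 0 in line 1, and ZNF347 and ZNF677 lie above 0 in line 2 and below it in line 1.

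Other clusters leaned one way. In the 7 members from ZNF582 to ZNF835, all 7 had a positive log2 fold change in line 2 over line 1, 5 were called higher and the median was 1.02. This held whichever library was left out, with 5 called and medians of 0.96 to 1.09. Genes around the cluster leaned the same way: the 1 tested gene between its members was called higher (0.57), and the 4 tested genes that flank it had a median of 0.62, with 1 called higher. ZNF835 was low in line 1, at 0.352 and 0.594 CPM in KO1_RES and 0.128 and 0.210 CPM in KO1, against 0.644 to 1.02 CPM in the controls (-1.65 ± 0.29, edgeR adjusted p = 0.0022, lost with the KO_RES libraries alone at 0.10). ZNF471, described as methylated in gastric tumours, was at 12.8 and 12.9 CPM in KO2_RES and 15.1 and 13.3 CPM in KO2, against 5.87 and 4.86 CPM in KO1_RES and 8.72 and 7.74 CPM in KO1, a difference of 1.02 ± 0.19 (edgeR adjusted p = 0.0029).

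In the cluster from ZNF627 to ZNF791, 22 of 24 members were tested. Between the lines 8 were lower and 1 higher in line 2, with a median of -0.33, and in line 1 over control 8 were higher and 0 lower, with a median of 0.61. ZNF844 (ENSG00000223547.5) was at 0.188 and 0.616 CPM in KO2_RES and 0.257 and 0.272 CPM in KO2, 3.68 and 4.07 CPM in KO1_RES and 1.42 and 1.31 CPM in KO1, 0.305 and 0.337 CPM in controls 3 and 4, and 0.0179 and 0.0292 CPM in controls 1 and 2. Line 1 lay above every other library for ZNF844 (line 2 over line 1 -2.80 ± 0.64, edgeR adjusted p = 0.0087, lost with the KO libraries alone at 0.13). ZNF563, 1 of the 3 consecutive called genes ZNF44, ZNF563 and ZNF442, was at 1.46 and 1.97 CPM in KO2_RES and 1.25 and 1.87 CPM in KO2, against 4.19 and 6.98 CPM in KO1_RES and 2.74 and 4.03 CPM in KO1, with 1.52 to 2.09 CPM in the controls. The call for ZNF563 between the lines (-1.40 ± 0.24, edgeR adjusted p = 0.0019) was lost with the KO libraries alone (0.062). The 13 tested genes that flank the cluster, out to 10 on each side, gave 1 higher and 1 lower between the lines, with a median of -0.08.

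In the 34 members from ZNF264 to ZNF544, 10 were higher and 0 lower in line 2 over control, with a median of 0.34. This count rested on single libraries, with 3 to 9 higher when 1 was left out and the fewest without KO2 replicate 1. The 8 tested genes that flank this cluster had a median of 0.23, with 1 called higher. ZNF274, which binds the ends of other zinc finger genes and recruits SETDB1 to them, was at 54.7 and 44.8 CPM in KO2_RES and 66.5 and 47.9 CPM in KO2, against 28.5 to 40.9 CPM in the controls. Its change in line 2 was 0.59 ± 0.15 (edgeR adjusted p = 0.020, lost at 0.092 without KO2 replicate 1 and at 0.060 without KO2_RES replicate 1). In the 19 members from ZNF283 to ZNF180, 18 had a positive value in line 2 over line 1 with a median of 0.34, but only 4 were called, and 1 without KO1 replicate 1.

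The cluster near the centromere, from ZNF101 to ZNF254 with 37 members, held most of the members called in the rescue of line 1. In KO1_RES over KO1 all 37 members had a positive log2 fold change, with a median of 0.47, and in 27 of them both KO1_RES libraries lay above both KO1 libraries, as 17.9% of all genes tested did. Leaving out 1 library at a time left 33 to 37 positive, with medians of 0.42 to 0.61. In KO2_RES over KO2, 21 of the 37 were positive, with a median of 0.01. The summed level of the cluster was 676.3 and 640.7 CPM in KO1_RES and 440.8 and 513.5 CPM in KO1, 746.4 and 619.3 CPM in KO2_RES and 674.9 and 656.2 CPM in KO2, 610.3 and 531.4 CPM in controls 3 and 4, and 604.5 and 567.6 CPM in controls 1 and 2. The 2 KO1 libraries were thus the lowest of the 12. The 15 tested genes that flank the cluster had a median of 0.05 in KO1_RES over KO1.

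Without a replicate block, 1 member was called in KO1_RES over KO1, ZNF729 of this cluster, where 0.195% of all genes tested were called. ZNF729 (ENSG00000196350.7) was at 14.9 and 13.5 CPM in KO1_RES and 4.13 and 5.81 CPM in KO1, with 15.8 and 12.9 CPM in KO2_RES and 10.6 and 10.02 CPM in KO2, and 5.04 to 6.44 CPM in the controls. The KO1_RES libraries lay above KO1 and the controls (log2 fold change 1.52 ± 0.21, edgeR adjusted p = 0.029), and the call was lost in 8 of 12 fits that left out 1 library, with an adjusted p of up to 0.27. Libraries with the same replicate number deviated together among the KO and KO_RES groups, and with the number as a block 13 members were higher and 5 lower, where 0.564% of all genes tested were called higher and 2.4% lower. Of the 13 higher, 10 lay in this cluster: ZNF682, ZNF90, ZNF257, ZNF676, ZNF729, ZNF98, ZNF492, ZNF723, ZNF730 and ZNF681. The other 3, ZNF700, ZNF878 and ZNF844, lay in the ZNF627 to ZNF791 cluster, and the 5 lower were ZNF560, ZNF528, ZNF677, ZNF667 and ZNF471. In a fit without the controls, chosen after the data were seen, the same comparison with the block gave 15 higher and 5 lower, with 0.749% of all genes called higher and 2.57% lower, ZNF433, ZNF99 and, among the lower, ZNF329 being added and ZNF471 missed (0.054).

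ZNF90 was at 3.84 and 5.03 CPM in KO1_RES and 1.25 and 1.56 CPM in KO1, with 4.20 and 3.83 CPM in KO2_RES and 4.01 and 3.86 CPM in KO2, 2.88 and 2.89 CPM in controls 3 and 4, and 1.68 and 2.07 CPM in controls 1 and 2. Only the KO1 libraries lay below all controls for ZNF90, and the blocked log2 fold change was 1.66 ± 0.23 (edgeR adjusted p = 0.0022). ZNF723, given above, was at 1.31 and 1.31 CPM in KO2_RES and 1.40 and 1.66 CPM in KO2. Its blocked change was 1.77 ± 0.24 in KO1_RES over KO1 (edgeR adjusted p = 0.0016), and the change in line 2 was smaller than that in line 1 by -2.0 on the log2 scale (interaction, edgeR adjusted p = 0.028 with the block). ZNF723 was the only member for which the rescue differed between the lines in that test, where 86 of all 20559 genes tested were called. Without the block edgeR called 0 members and 0 of all genes. At an unadjusted p under 0.05 there were then 17 of 232 members, and 598 of all 20559 genes. In KO2_RES over KO2 edgeR called 0 members without the block and 0 with it, where 0.00486% and 0.0292% of all genes tested were called. At an unadjusted p under 0.05 the counts were 2 and 18 of 232, beside 298 and 1474 of all 20559 genes tested, and DESeq2 called 0 members.

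**Figure D4:**
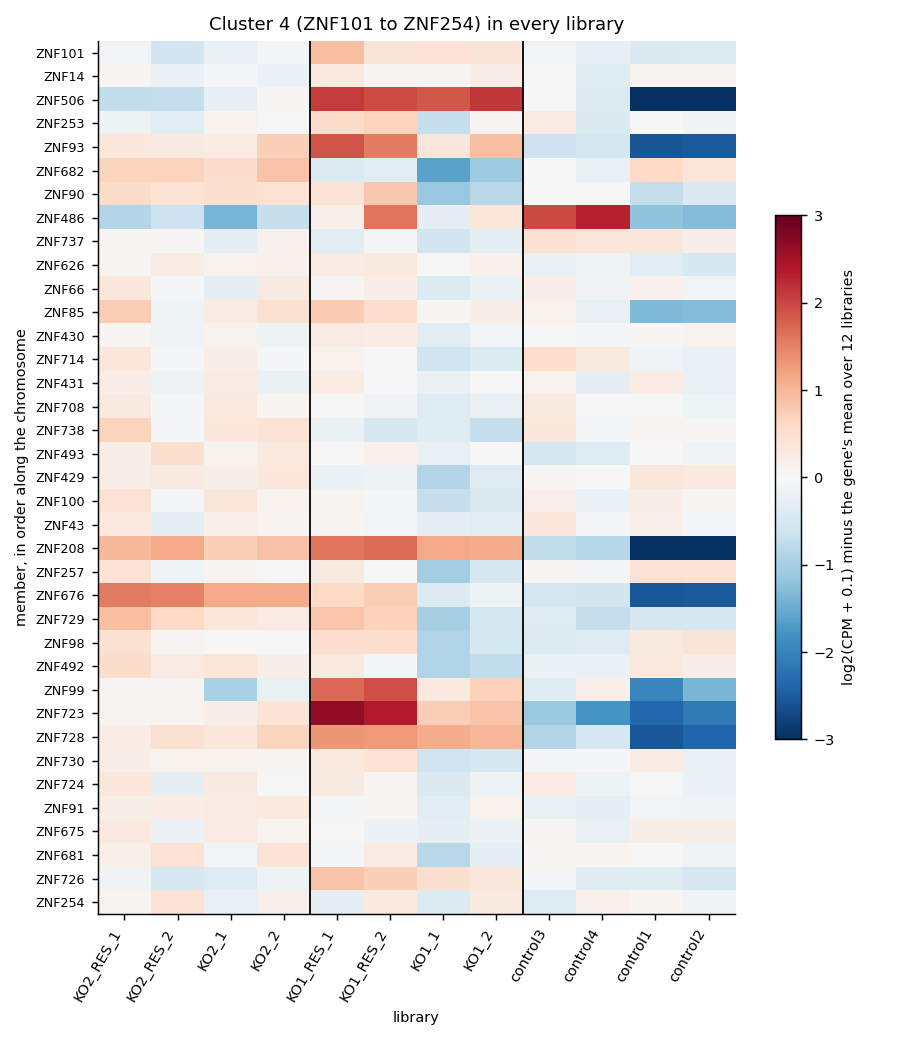
Heat map of the 37 members of the ZNF101 to ZNF254 cluster (down, in chromosome order) in the 12 libraries (across). Colour is log2(CPM + 0.1) minus the mean of the gene, and it saturates at 3 in either direction. The KO1_RES columns are higher than the KO1 columns over most of the height of the map, while single genes such as ZNF208 and ZNF506 stand out in controls 1 and 2.

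**Figure D5:**
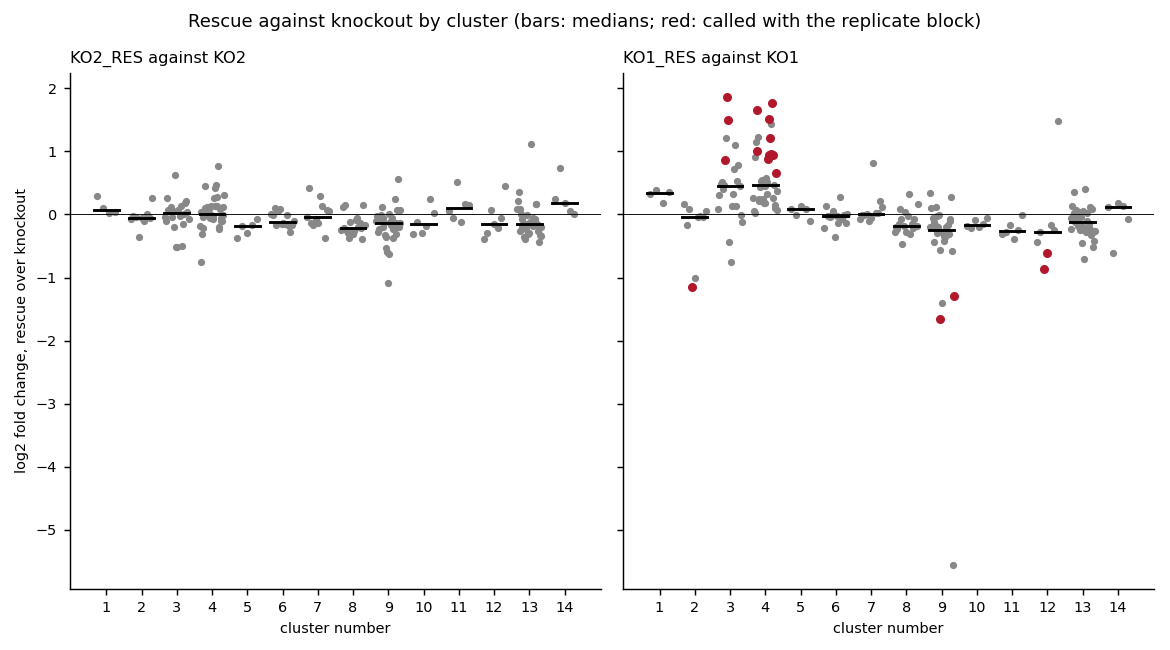
Log2 fold change of each tested member by cluster, for KO2_RES over KO2 and KO1_RES over KO1; bars are the cluster medians and red points are genes called with the replicate block. In KO1_RES over KO1 all 37 points of the ZNF101 to ZNF254 cluster lie above 0, and 4 of the 32 points of the ZNF577 to ZNF677 cluster do.

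In the ZNF577 to ZNF677 cluster the rescue of line 1 leaned the other way, with 4 of 32 members positive and a median of -0.24, and in 17 of them both KO1_RES libraries lay below both KO1 libraries, as 22.1% of all genes tested did. The rescue of line 2 leaned down here too, with 6 of 32 positive and a median of -0.13. In 11 of them both KO2_RES libraries lay below both KO2 libraries, as 10.5% of all genes tested did. ZNF528 of this cluster was at 0.313 and 0.198 CPM in KO1_RES, against 0.896 and 0.746 CPM in KO1, and 1.32 to 1.63 CPM in the controls (blocked log2 fold change -1.65 ± 0.37, edgeR adjusted p = 0.034). The 22 tested members from ZNF627 to ZNF791 had 18 positive values and a median of 0.45 in the rescue of line 1, and 12 and 0.02 in that of line 2. The lean downwards was not particular to 1 cluster. From ZNF264 to ZNF544, 10 of 34 were positive in the rescue of line 1 and 8 in that of line 2. From ZNF283 to ZNF180 it was 4 and 3 of 19.

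Genes of the silencing machinery that KRAB zinc finger proteins recruit, or that act on the same chromatin, were described from a list of 35, of which 34 were tested. In line 2 over control 5 were higher and 0 lower, in line 1 over control 4 higher and 1 lower, and in line 2 over line 1 5 higher and 4 lower. These are 14.7%, 14.7% and 26.5% of the list, beside 17.3%, 26.9% and 26.9% of all genes tested, so that the list was not called more often than other genes. The medians were 0.05, -0.02 and 0.12 on the log2 scale. TRIM28 and SETDB1, the core of KRAB silencing, were called in none of the 3. DNMT3A, which sets new DNA methylation, was at 49.2 to 54.3 CPM in line 2 and 25.3 to 28.4 CPM in line 1, against 38.5 to 43.6 CPM in the controls. Its 3 sets did not overlap, and the change was 0.95 ± 0.08 in line 2 over line 1 (edgeR adjusted p = 2.3e-05). ATRX, a chromatin remodeller that places histone H3.3 at repeats and over the ends of zinc finger genes, was at 262.6 to 308.3 CPM in line 2 and 167.1 to 187.4 CPM in line 1, against 165.6 to 188.6 CPM in the controls (line 2 over control 0.66 ± 0.09, edgeR adjusted p = 0.00072). In both rescue comparisons edgeR called 0 of the 34, with and without the replicate block. At an unadjusted p under 0.05 there were 0 without the block, and with it 1 in KO2_RES over KO2 and 5 in KO1_RES over KO1. Of all 20559 genes tested, 298 and 1336 passed in the same order without the block, and 1474 and 3090 with it. Whether these genes bear on the zinc finger genes was not tested.

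Promoter CpG content differed by cluster. Among the 208 members with a promoter in the RefSeq table the median was 16 CpG in 250 bases, against 11 over all promoters, and CG was found in all 208 member promoters and in 93.6% of all. The cluster near the centromere had a median of 8, the ZNF627 to ZNF791 cluster 12, the ZNF264 to ZNF544 cluster 16, the ZNF577 to ZNF677 cluster 19 and the ZNF582 to ZNF835 cluster 24. The motif searched was CG, which reads the same on both strands. The 14 members with a promoter that differed at least 4-fold between the lines had a median of 15 CpG, and the other 188 tested ones 16.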

How the data were processed

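RNA was sequenced from 12 libraries made with a stranded mRNA kit, per the labels' protocols. Reads were aligned with STAR 2.6.0b to GRCh37, per the submitters' processing notes. The authors deposited 1 table per library with the count of reads per gene, unstranded and for each strand; the counts are raw. The fourth column, the strand with 19.8 to 21.1 times the reads of the other, was used. The first 4 lines of each file, which name no gene, hold 23.2% to 31.5% of reads, of which reads mapped to several places are 7.21% to 11.6% of all reads, and stayed out of every total. Chromosome, gene type, order and strand came from GENCODE release 29, to which 52338 gene IDs were matched; it is on another build, so no coordinates of the counts are given.

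Groups came from the titles. Counts were fitted with edgeR 4.0.16 (R 4.3.3, limma 3.58.1): filterByExpr, TMM scaling, a quasi-likelihood fit of 5 groups, with lines averaged over KO and KO_RES, and Benjamini-Hochberg adjustment over 20559 genes at 0.05. The biological coefficient of variation was 25.8%. The fit was tested on simulated data. Errors printed as ± are standard errors from this fit, which hold the spread between libraries, and limits of detection cover counting error only. Libraries of the same number deviated together among the KO and KO_RES groups (correlations of deviations 0.205 to 0.46), and less so with the controls (0.0254 to 0.185), so a replicate block applies to comparisons within the lines.

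The members and lists were chosen with earlier results of these data known. Genes named were those switched, the 8 largest called rises and falls per line comparison at 0.5 CPM or more with sets that do not overlap, up to 5 called each way per rescue, called members of clusters with 3 or more called the same way, and called genes of the silencing list. This rule gave 98 members, and the text prints only a part of the genes that it gave. Neighbours of these genes, ZNF14, ZNF253, ZNF233 and the other members met by the rule for pairs of controls, the members called with the block, and TRIM28, SETDB1, ALB and HKDC1 are named besides. Alternatives were DESeq2 1.42.0, relative log expression scaling, no filter, unstranded counts, the genotype field, 3 groups, each pair of controls, KO or KO_RES alone, other limits for on and off, each library left out, and a block.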

Additional observations from a re-analysis of the deposited data

Results flagged for a closer look

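For ZNF600, ZNF550 and ZNF544 the gap of 1 control library to the nearest of the other 3 was large against the range of the 4, whatever the size of that range. ZNF600 was at 8.47 CPM in control 3, against 7.52 to 7.63 CPM in the other 3, which is a small difference in level. ZNF550 was at 9.95 CPM in control 4, the lowest of the 4. ZNF544 was at 4.76 CPM in control 3, the highest of the 4. Chance flags about 1 in 20 groups, and these are 3 of the 98 named members examined in this way. The lines lay outside the range of all 4 controls for ZNF600 and ZNF544.

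For ZNF320, ZNF347 and ZNF677 the 2 lines moved in opposite directions from control, and line 2 over line 1 tests that difference. It was -3.36 for ZNF320, 2.87 for ZNF347 and 2.64 for ZNF677 on the log2 scale. For ZNF723 the rescue effect in line 2 minus that in line 1 was -2.0 on the log2 scale with the replicate block, where the interaction was called in 86 genes of all tested. All 4 genes lie in clusters whose other members did not all follow them.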

How the results depend on the processing

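Members called in line 1 over control (65) stayed within 1.5 times that count in every alternative run, with 50 to 71 when 1 library was left out. In line 2 over control (49) the range was 24 to 49, and the count was 29 with the KO libraries alone, 23 with the KO_RES libraries alone and 77 with the replicate block. That block gives controls 3 and 4 levels of their own and so rests on controls 1 and 2, whose numbers do not pair with the lines. In line 2 over line 1 (72) the range was 49 to 70, with 34 in KO alone, 37 in KO_RES alone and 112 with the block. In KO1_RES over KO1 (1) the range was 0 to 1. The count was 9 without the filter on low counts, 0 by the genotype field and 10 by DESeq2. With the block it was 18 (2.96% of all genes called). Without the controls it was 5 (0.384%), and without the controls and with the block 20 (3.31%), the last 2 chosen after the data were seen. The cause of these differences was not tested. The settings also change how many of all genes are called. A count without that share beside it is therefore not read as a result about the members. With on set at 1 CPM, 0 members were switched between the lines and 1 between the pairs of controls, and with unstranded counts 1 was switched between the lines. ZNF90 turned to -0.14 in line 2 over line 1 with the KO_RES libraries alone, and ZNF729 to -0.24 in line 1 over control with the KO libraries alone. Among named members, 17 of 43 calls in line 2 over control, 28 of 55 in line 1 over control and 17 of 60 in line 2 over line 1 held in every alternative. The block ended 1 of the 43 named calls in line 2 over control and none of the 55 or 60 others. Below about 0.1 CPM, 1 to 6 counts decide a value, so off means not detectable at this depth.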
